A study of Mus musculus with 20 samples.

Results

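The 6 genes described here, Hsph1, Hspa4, Hspa4l, Hspa8, Hspa2 and Hspa13, encode members of the HSP70 chaperone superfamily other than the classical heat-inducible pair Hspa1a and Hspa1b. They were taken by name, through the 18 probes that list 1 of these genes alone in the platform's probe annotation, out of 42624 probes in the table. All 6 were among the 10625 genes tested, and all 18 probes passed the filter on missing values. The annotation gave Hspa8 7 probes, Hsph1 4, Hspa13 3, Hspa4l 2, and Hspa4 and Hspa2 1 each. A further probe lists Hspa8 together with Eif4h and was not used.

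The study followed heat shock over time in mouse fibroblasts without and with heat shock factor 1, on 20 two-colour spotted arrays. The groups were HSF1 -/- cells (KO here) at 3, 4, 6 and 8 h of heat shock (late, n = 4), at 0.5, 1 and 2 h (early, n = 3) and at 0 h (n = 3), and HSF1 +/+ cells (WT here) at the same late (n = 4), early (n = 3) and 0 h (n = 3) times. Each array set the Cy5-labelled sample against the same Cy3-labelled mixture of mRNA, made from unheated fibroblasts and from fibroblasts after 1 h of heat. The labels do not give the strain, the HSF1 allele, the number of cell lines or clones, the temperature, or whether heating went on to the time of harvest. KO and WT cells can therefore also differ by line, and genotype and line cannot be told apart.

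Only 0 h was repeated, with 3 arrays per genotype, and the labels do not say whether these came from separate cultures. The p-values rest on the spread within groups. Between the 0 h arrays this spread may be technical, and within a heated window it includes change over time. The comparison of KO and WT cells during heating uses no 0 h array. Its p-values rest on how the difference between the genotypes varies from time to time. Arrays held 39037 to 42220 values, and pairs of arrays correlated with r of 0.423 to 0.805 across probes. No probe listed Hsf1 alone (0 probes), so the deletion could not be checked on the targeted transcript. The values are ratios to a pool of fibroblast RNA and give no absolute level, so marker genes cannot test the labelled cell type here. Among 13 measured of 15 fibroblast markers, 4 were higher and 1 was lower in KO than in WT cells at 0 h by the test described below. Of all genes 6.64% were called there in either direction. The mean of these 13 markers lay between 0.198 and 0.372 on the KO 0 h arrays and between -0.05 and 0.25 on the WT 0 h arrays (log2, relative to each gene's own mean), and its part in the results below was not tested. Late arrays also differed from 0 h arrays in some marker means. In KO cells the fibroblast mean was -0.279 to 0.0515 late, against 0.198 to 0.372 at 0 h, with 2 of the 13 markers called lower, and the mean of 5 measured of 6 epithelial markers was 0.0502 to 0.277 late, against -0.109 to -0.0155 at 0 h, with 0 called. Of all genes 6.8% were called lower in KO late cells, and 390 of 10625 in WT late cells. In WT cells the fibroblast mean was -0.396 to 0.0209 late, against -0.0453 to 0.249 at 0 h, with 1 of the 13 markers called lower. The mean of 8 measured of 10 macrophage markers in WT cells was 0.148 to 0.300 late, against -0.157 to 0.0494 at 0 h, with 0 called. Late and 0 h means overlapped for the macrophage markers in KO cells and the epithelial markers in WT cells. They also overlapped for the endothelial and muscle markers in each genotype, with 1 of 4 measured muscle markers called lower in KO late cells. How often other sets of genes separate in this way was not counted. The part of the marker shifts in the late changes below was not tested.

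HSP70 proteins bind exposed hydrophobic stretches of unfolded proteins in a cycle driven by ATP. J-domain proteins bring them their clients and trigger ATP hydrolysis, and nucleotide exchange factors release the bound ADP and thereby the client. HSP110 proteins, here Hsph1, Hspa4 and Hspa4l, are large relatives of HSP70 that act as such exchange factors in the cytosol. Heat shock factor 1 is the main transcription factor of the heat shock response. It binds, as a trimer, to heat shock elements, which are inverted repeats of the unit nGAAn in the promoters of chaperone genes.

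The genes lie apart in the genome, on 6 chromosomes. In GRCm38.p6 the positions of the whole genes are chr5:149616843-149636498 for Hsph1 (gene ID 15505), chr11:53259814-53300479 for Hspa4 (15525), chr3:40744500-40796103 for Hspa4l (18415), chr9:40801276-40805202 for Hspa8 (15481), chr12:76403812-76406938 for Hspa2 (15512) and chr16:75755190-75767276 for Hspa13 (110920). RefSeq promoter entries were found for 4 of the 6 genes, and none was found for Hspa8 and Hspa13. The 250 bases before an annotated start, which in each case lies inside the span given above, are shown for the 3 genes with an entry that were called higher in WT late cells, 5′ to 3′ on the coding strand, with the only match to the searched motifs in capitals.
Hsph1, chr5:149636316-149636565 (- strand): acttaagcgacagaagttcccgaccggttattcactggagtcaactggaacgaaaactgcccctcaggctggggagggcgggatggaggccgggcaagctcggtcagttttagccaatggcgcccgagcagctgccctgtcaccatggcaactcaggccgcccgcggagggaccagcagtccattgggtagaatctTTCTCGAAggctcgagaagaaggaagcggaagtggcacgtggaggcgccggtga
Hspa2, chr12:76404120-76404369 (+ strand): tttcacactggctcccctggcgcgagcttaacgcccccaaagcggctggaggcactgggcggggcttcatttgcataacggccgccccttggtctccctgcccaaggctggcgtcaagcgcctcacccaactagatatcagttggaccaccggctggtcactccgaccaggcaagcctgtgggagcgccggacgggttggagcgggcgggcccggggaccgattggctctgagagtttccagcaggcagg
Hspa4l, chr3:40745363-40745612 (+ strand): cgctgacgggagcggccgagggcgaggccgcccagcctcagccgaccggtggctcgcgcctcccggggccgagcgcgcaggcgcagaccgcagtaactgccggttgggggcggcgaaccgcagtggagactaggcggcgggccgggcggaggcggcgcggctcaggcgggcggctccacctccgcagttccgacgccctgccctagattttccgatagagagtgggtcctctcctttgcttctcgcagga
The letter patterns of facing heat shock units searched were TTCNNGAA, GAANNTTC and GAANNTTCNNGAA, on both strands, where the first and second are their own reverse complements and the longer pattern contains both. Hsph1 held TTCTCGAA, a match to TTCNNGAA, at 54 to 47 bases before the start of the entry shown and at 33 to 26 bases before its other annotated start. The windows of Hspa2, Hspa4l and Hspa4 held no match, which says only that these letters are not in these 250 bases. TTCNNGAA occurred in 7.17% of the 32851 mouse promoter windows of this length, GAANNTTC in 6.69% and GAANNTTCNNGAA in 0.466%. A match is a description of the letters and not a measured binding site.

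At 3 to 8 h of heat shock none of the 6 genes was called higher in KO fibroblasts (0 genes), and Hspa13 was called lower. In WT fibroblasts 4 of the 6 were called higher over the same times: Hsph1, Hspa4l, Hspa2 and Hspa8. Changes were tested with limma, one model over all 20 arrays, with Benjamini-Hochberg adjustment over all 10625 genes, and a gene was called where its adjusted p was under 0.05. Errors beside differences are the standard errors of that model. Of all genes, 3.86% were called higher in KO late cells, where 0 of the 6 were, and 3.6% were called higher in WT late cells, where 4 of the 6 were. Hspa4l had a positive late difference in KO cells, which was not called (0.55 ± 0.48, limma adjusted p = 0.528). Hspa13 also had a negative late difference in WT cells, which was not called (limma adjusted p = 0.0706). Tested directly, the late response was called different between the genotypes for 0 of the 6 genes, beside 0.0941% of all genes. The median late difference (log2) was -0.41 over the 6 genes in KO cells and 1.34 in WT cells, beside -0.02 over all genes in either genotype. Gene values below are log2, relative to the gene's own mean over the 20 arrays, so they can be compared across arrays but not between genes.

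**Figure D1:**
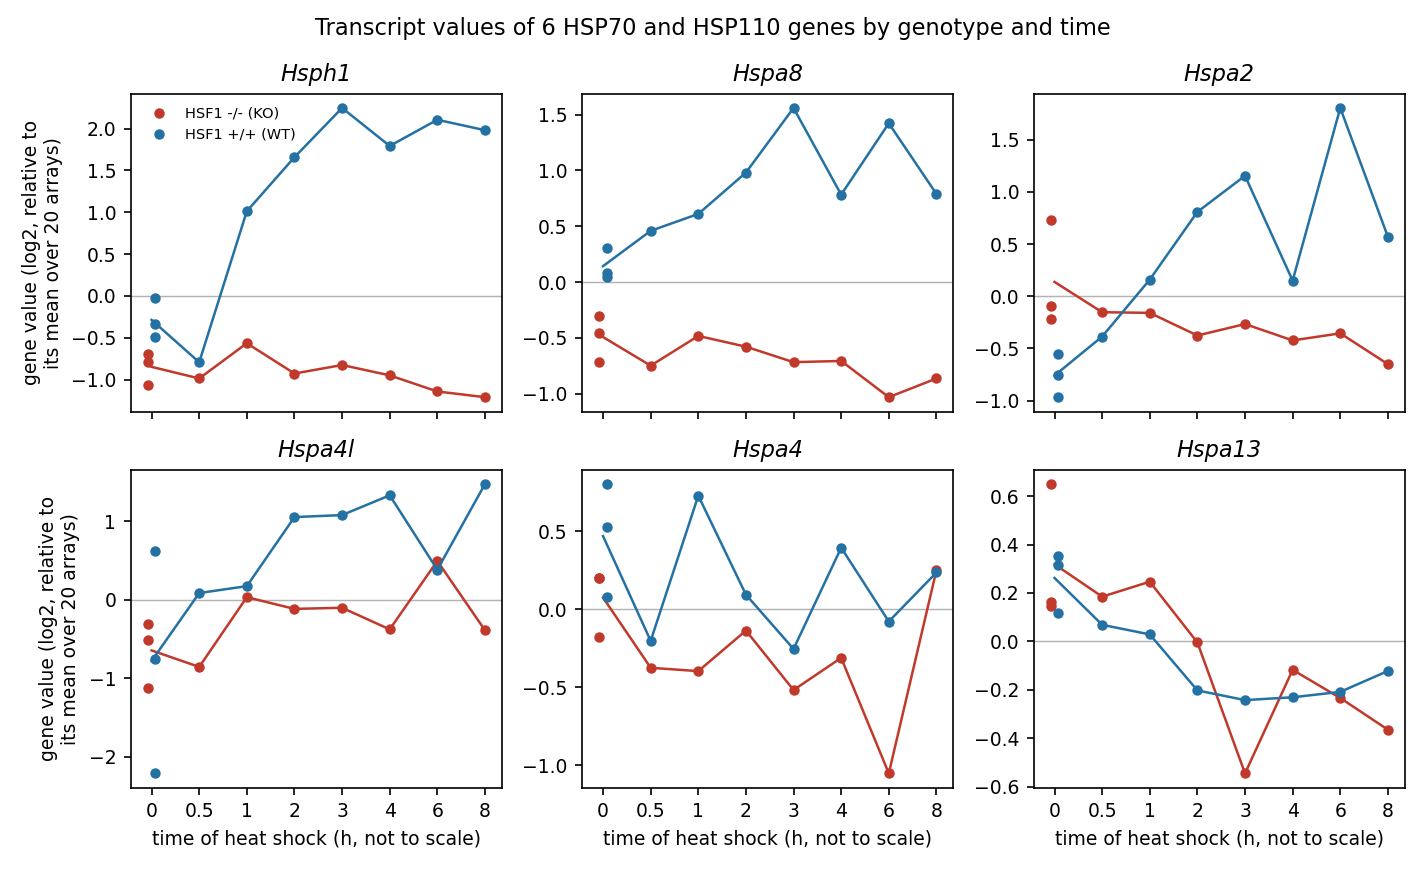
Gene values (vertical axis, log2 relative to the gene's mean over 20 arrays) of the 6 genes by time of heat shock in hours (horizontal axis, evenly spaced and not to scale), with 1 point per array, KO in red and WT in blue, and lines through the mean of the 3 arrays at 0 h and the single array at each later time. Hsph1 reached 2.25 in WT cells at 3 h and lay between -1.21 and -0.56 on every heated KO array.

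Hsph1 encodes the stress-induced HSP110 protein of the cytosol. In KO cells its values were -0.70, -1.06 and -0.78 on the 0 h arrays, then -0.99, -0.56, -0.93, -0.83, -0.95, -1.14 and -1.21 at 0.5, 1, 2, 3, 4, 6 and 8 h. In WT cells they were -0.50, -0.34 and -0.02 at 0 h, then -0.79, 1.01, 1.66, 2.25, 1.79, 2.10 and 1.98 at the same times. The WT value at 0.5 h lay below all 3 WT 0 h arrays, and from 1 h every WT array lay above them. The KO arrays stayed within a narrow band, and every KO array from 1 h on lay below its WT counterpart by more than the spread of either 0 h group.

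The late mean of Hsph1 in KO cells was -1.03 ± 0.18 (SD, n = 4), against -0.85 ± 0.19 at 0 h (SD, n = 3), a difference of -0.18 ± 0.37 that did not pass (limma adjusted p = 0.812). In WT cells the late mean was 2.03 ± 0.19 (SD, n = 4), against -0.29 ± 0.24 at 0 h (SD, n = 3), a log2 difference of 2.32 ± 0.37 or 4.98-fold (limma adjusted p = 0.00269). The WT call stood in all 30 alternative analyses, with differences of 2.19 to 2.72. The 4 Hsph1 probes gave late differences of -0.46 to -0.01 in KO cells and of 2.14 to 2.72 in WT cells, and all 4 were called higher in WT cells in a test over all 40453 probes, of which 10.6% were called in either direction.

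Hspa4l encodes another HSP110 protein, known for its high level in testis. Its KO values were -0.51, -1.12 and -0.31 at 0 h, then -0.85, 0.03, -0.12, -0.10, -0.38, 0.50 and -0.39 from 0.5 to 8 h. Its WT values were -2.21, 0.62 and -0.75 at 0 h, then 0.09, 0.17, 1.05, 1.08, 1.33, 0.38 and 1.47. The WT 0 h arrays were spread over a wide range, and the WT value at 6 h lay inside it.

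The gene-level late difference of Hspa4l was 0.55 ± 0.48 in KO cells (limma adjusted p = 0.528) and 1.85 ± 0.48 or 3.60-fold in WT cells (limma adjusted p = 0.0292). The WT call was lost without the first WT 0 h array, where the difference was 1.13 (limma adjusted p = 0.119), and without the third WT 0 h array, the WT 4 h array or the WT 8 h array (limma adjusted p of 0.0607, 0.0663 and 0.0759). It was also lost with quantile normalization, with arrays scaled to a common width and with only the WT late and WT 0 h arrays in the fit (limma adjusted p of 0.0550, 0.0617 and 0.165), so that 23 of 30 alternatives kept it. Many of these 30 only left out KO or WT early arrays, which reach this call mainly through the shared spread and the adjustment. The 2 probes behind this value differed. The first probe gave ratios to the pool of -0.85, -0.51 and -0.82 in KO cells at 0 h and -0.90, -0.92, -0.09 and -1.07 in KO cells at 3, 4, 6 and 8 h. In WT cells it gave -0.51, -0.22 and -0.98 at 0 h and 1.71, 1.17, 1.23 and 1.57 late (log2, array-centred). The late WT arrays of the first probe lay clear of all its other late and 0 h arrays. Its late difference was -0.02 ± 0.33 in KO cells and 1.99 ± 0.33 in WT cells (limma adjusted p over probes of 0.980 and 0.00174). The second probe spanned -4.99 to 0.38 on the WT 0 h arrays, gave late differences of 1.13 ± 0.87 in KO cells and 1.70 ± 0.87 in WT cells, and passed in neither.

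Hspa4, the third HSP110 gene, is known as a broadly expressed cytosolic exchange factor. Its KO values were 0.20, -0.18 and 0.20 at 0 h and ran from -1.05 at 6 h to 0.25 at 8 h among the heated arrays. Its WT values were 0.80, 0.53 and 0.08 at 0 h and ran from -0.25 at 3 h to 0.73 at 1 h among the heated arrays. Heated and unheated arrays overlapped in each genotype. The late differences were -0.48 ± 0.28 in KO cells and -0.39 ± 0.28 in WT cells (limma adjusted p of 0.294 and 0.403), so no change was detected with its single probe. Within the HSP110 branch, therefore, Hsph1 and Hspa4l were called higher in WT late cells, and Hspa4 had a negative late difference in each genotype.

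Hspa8 encodes Hsc70, the HSP70 protein that cells make without stress, which also strips clathrin from vesicles. Its KO values were -0.31, -0.72 and -0.45 at 0 h, then -0.75, -0.48, -0.58, -0.72, -0.71, -1.03 and -0.86 from 0.5 to 8 h. Its WT values were 0.08, 0.30 and 0.05 at 0 h, then 0.46, 0.61, 0.98, 1.56, 0.78, 1.42 and 0.79. Every heated WT array, the 0.5 h array included, lay above all WT 0 h arrays, and every KO array, heated or not, lay below every WT array.

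The late mean of Hspa8 was -0.83 ± 0.15 in KO cells (SD, n = 4), against -0.49 ± 0.21 at 0 h (SD, n = 3), and 1.14 ± 0.41 in WT cells (SD, n = 4), against 0.14 ± 0.14 at 0 h (SD, n = 3). The late differences were -0.34 ± 0.20 in KO cells (limma adjusted p = 0.309) and 1.00 ± 0.20 or 1.99-fold in WT cells (limma adjusted p = 0.00792). The WT call was lost only with the fit limited to the WT late and WT 0 h arrays (limma adjusted p = 0.0947) among 30 alternatives. Its 7 probes gave late WT differences of 0.70 to 1.26, of which 6 passed the test over probes, and late KO differences of -0.54 to -0.16, of which 0 passed.

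Hspa2 encodes an HSP70 protein known for its part in sperm development. Its KO values were -0.22, -0.10 and 0.73 at 0 h, then -0.15, -0.16, -0.38, -0.27, -0.42, -0.36 and -0.65 from 0.5 to 8 h. Its WT values were -0.76, -0.56 and -0.97 at 0 h, then -0.39, 0.16, 0.81, 1.15, 0.15, 1.80 and 0.57. All 3 KO arrays lay above all 3 WT arrays at 0 h, and from 1 h every KO array lay below its WT counterpart.

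The late difference of Hspa2 was -0.56 ± 0.33 in KO cells (limma adjusted p = 0.313) and 1.68 ± 0.33 or 3.20-fold in WT cells (limma adjusted p = 0.00761). The KO value rested on the third KO 0 h array, at 0.73, and was -0.27 without it (limma adjusted p = 0.730). With only the WT late and WT 0 h arrays in the fit the WT value missed the threshold (limma adjusted p = 0.0754). Hspa2 rests on 1 probe, and its coding sequence resembles that of Hspa1a. Whether the probe also bound Hspa1a transcript was not tested.

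**Figure D2:**
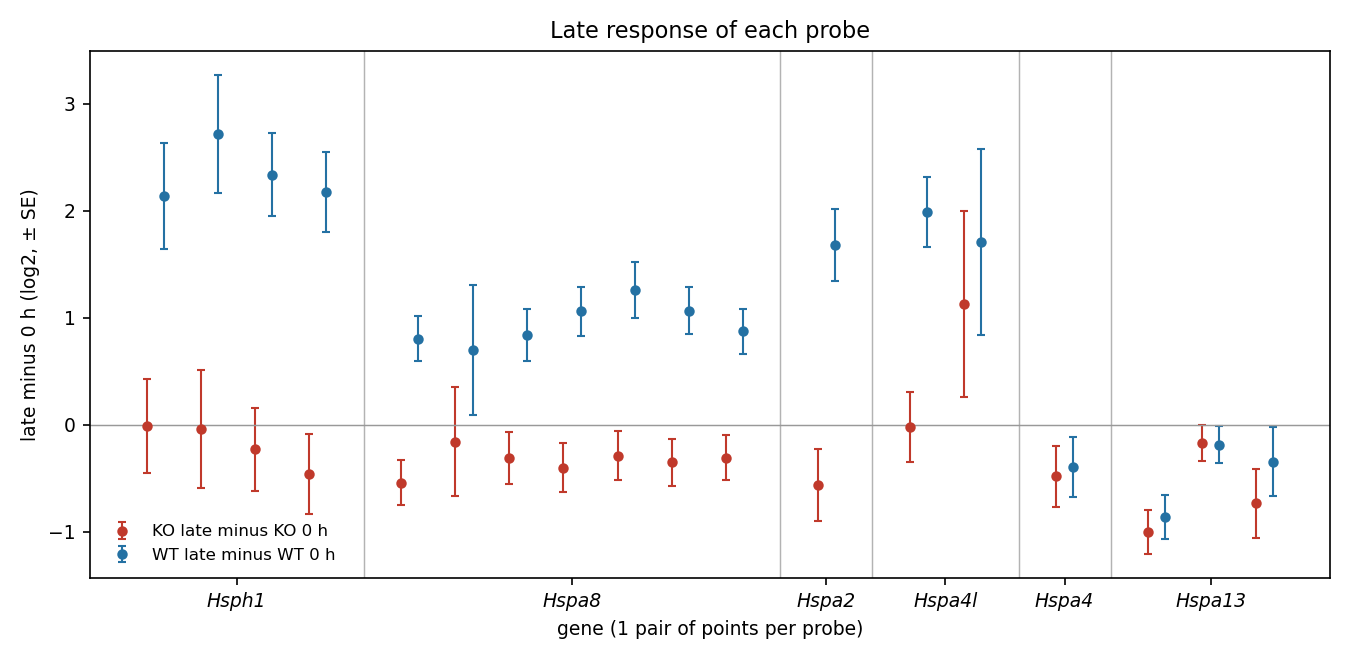
Late minus 0 h difference of each of the 18 probes (vertical axis, log2, error bars ± SE of the limma fit over probes), grouped by gene along the horizontal axis, KO in red to the left of WT in blue. All 4 Hsph1 probes lie between 2.14 and 2.72 in WT cells and between -0.46 and -0.01 in KO cells, whereas the KO and WT points of Hspa4 and Hspa13 lie close together.

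Hspa13 encodes Stch, an HSP70 relative of microsomes that lacks the substrate-binding domain. Its KO values were 0.65, 0.16 and 0.14 at 0 h, then 0.18, 0.25, -0.00, -0.55, -0.12, -0.23 and -0.36 from 0.5 to 8 h. Its WT values were 0.35, 0.32 and 0.12 at 0 h, then 0.07, 0.03, -0.20, -0.24, -0.23, -0.21 and -0.12. All 4 late arrays of each genotype lay below all 3 of its 0 h arrays.

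Of the 6 genes, Hspa13 was the 1 called lower in KO late cells, beside 6.8% of all genes called lower there. Its late difference was -0.63 ± 0.15 in KO cells (limma adjusted p = 0.0119) and -0.46 ± 0.15 in WT cells (limma adjusted p = 0.0706). The difference between these responses was -0.17 ± 0.21 (limma adjusted p = 0.869). Without the first KO 0 h array the KO difference was -0.47 and missed the threshold (limma adjusted p = 0.0889), and without the KO 6 and 8 h arrays it was -0.65 (limma adjusted p = 0.0906). Of its 3 probes 1 was called lower, in KO late cells at -1.0 and in WT late cells at -0.86 (limma adjusted p over probes of 0.00322 and 0.0132). Of all probes 13.9% were called in either direction in KO late cells and 10.6% in WT late cells. The uncalled probes gave -0.17 and -0.73 in KO late cells and, in the same order, -0.18 and -0.35 in WT late cells. With the called probe alone the WT gene value passed (limma adjusted p = 0.0179), and without the first KO 0 h array it also passed (limma adjusted p = 0.0489).

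Over 0.5 to 2 h of heat shock none of the 6 genes passed in either genotype (0 in KO and 0 in WT cells), where 0% of all genes were called in KO cells and 0.0376% in WT cells. At an unadjusted p under 0.05, limma gave 793 of 10625 genes in KO cells and 1202 in WT cells. The early differences ran from -0.38 for Hspa4 to 0.33 for Hspa4l in KO cells. In WT cells they were 0.91 ± 0.39 for Hsph1, 1.22 ± 0.52 for Hspa4l, 0.95 ± 0.36 for Hspa2, 0.54 ± 0.21 for Hspa8, -0.30 ± 0.16 for Hspa13 and -0.26 ± 0.30 for Hspa4, with limma adjusted p of 0.340 to 0.776. The early WT mean of Hsph1 joined a low 0.5 h array to high ones at 1 and 2 h. Its early WT difference was 1.62 without the WT 0.5 h array (limma adjusted p = 0.00304) and 0.39 without the WT 2 h array (limma adjusted p = 0.819). That of Hspa4l was 0.50 without the first WT 0 h array and 1.92 without the second (limma adjusted p of 0.731 and 0.0887).

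Whether the late response differed between the genotypes was tested as KO late minus KO 0 h, less WT late minus WT 0 h. None of the 6 genes passed (0 genes), beside 0.0941% of all genes and 926 genes at an unadjusted p under 0.05 by limma. The differences were -2.50 ± 0.52 for Hsph1, -2.24 ± 0.47 for Hspa2 and -1.33 ± 0.28 for Hspa8, each with limma adjusted p = 0.0933. These genes stood at places 17, 19 and 20 of 10625 by p. Hspa4l had -1.29 ± 0.68 (limma adjusted p = 0.617), with -0.58 without the first WT 0 h array and -2.00 without the second. Hspa13 had -0.17 ± 0.21 and Hspa4 had -0.09 ± 0.39. The Hsph1 difference passed without the WT 0.5 h array (limma adjusted p = 0.000175) and without the WT 2 h array (limma adjusted p = 0.0250), which enter through the shared estimate of spread. In the early window the differences in response lay between -1.32 and 0.12, with 0 of the 6 genes and 0% of all genes called and 889 genes at an unadjusted p under 0.05 by limma.

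Before heating, KO and WT cells were compared on 3 arrays each. None of the 6 genes passed (0 genes), beside 6.64% of all genes and 2213 genes at an unadjusted p under 0.05 by limma. Hspa8 came nearest, at -0.64 ± 0.21 (limma adjusted p = 0.0853), with all 3 KO arrays below all 3 WT arrays. It passed without the WT 4 h array or the WT 8 h array (limma adjusted p of 0.0384 and 0.0263), and without a widely spread Hspa8 probe, left out after seeing the data, it was -0.75 (limma adjusted p = 0.0382). Of its 7 probes 3 were called lower in KO cells in the test over probes, which called 7.99% of all probes. Hsph1 had -0.56 ± 0.39 and Hspa2 0.90 ± 0.36 (limma adjusted p of 0.461 and 0.15), each with no overlap between the genotypes. Hspa4, Hspa4l and Hspa13 had -0.39, 0.13 and 0.06, with overlapping arrays. The share of all genes whose arrays do not overlap was not counted, here or for the separations described gene by gene above. Such a separation therefore adds nothing to the tests.

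During heating, KO and WT cells were compared at each of the 7 times, and the 14 arrays were tested together with time as a block. Hsph1, Hspa8 and Hspa4l were lower in KO cells, 3 of the 6 genes beside 3.13% of all genes called lower. This comparison holds any difference already present at 0 h as well as any difference in response.

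**Figure D3:**
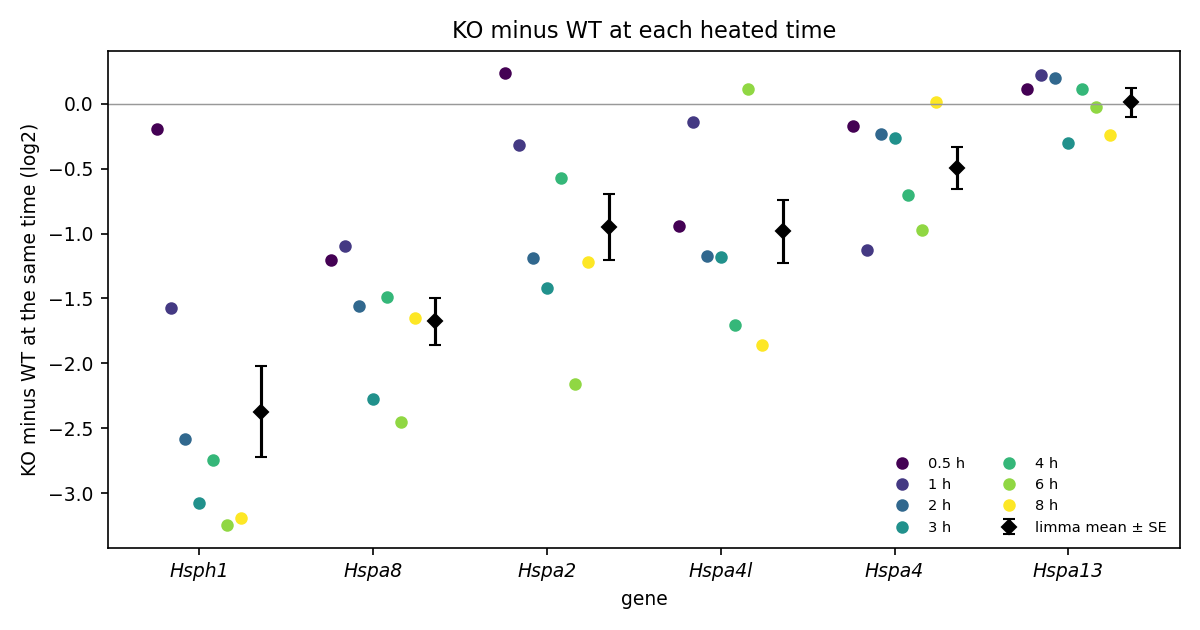
KO minus WT difference (vertical axis, log2) of each gene at each heated time (coloured points, 1 pair of arrays each), with the limma mean over the 7 times and its SE (black diamonds and bars). All 7 points of Hsph1 and of Hspa8 lie below 0, and those of Hspa13 lie on either side of it.

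For Hsph1 the KO minus WT differences were -0.19, -1.58, -2.58, -3.07, -2.74, -3.25 and -3.19 at 0.5, 1, 2, 3, 4, 6 and 8 h, with a mean of -2.37 ± 0.35 (limma adjusted p = 0.00580, lower in KO at 7 of 7 times). It missed the threshold without the KO 6 and 8 h arrays, at -2.03 (limma adjusted p = 0.0660). For Hspa8 the differences were -1.21, -1.09, -1.56, -2.28, -1.49, -2.45 and -1.65, with a mean of -1.68 ± 0.18 (limma adjusted p = 0.00132, lower at 7 of 7 times), and this call was kept in all 24 alternatives. Leaving out either array of a time removes that time from this comparison, so the 24 alternatives repeat some fits and are not independent. The Hsph1 gap at 0.5 h was the smallest of its 7, whereas the Hspa8 gap at 0.5 h was larger than the mean difference of -0.64 at 0 h.

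For Hspa4l the mean was -0.98 ± 0.24 (limma adjusted p = 0.0464, lower in KO at 6 of 7 times). This call was lost in 15 of 24 alternatives, among them leaving out either array of the 0.5, 2, 3, 4 or 8 h pairs, with limma adjusted p of up to 0.112. Hspa2 had -0.95 ± 0.26 (limma adjusted p = 0.0650, lower at 6 of 7 times), with its 1 positive difference at 0.5 h, and passed without the 0.5 h arrays at -1.15 (limma adjusted p = 0.0295). Hspa4 had -0.49 ± 0.16 (limma adjusted p = 0.115, lower at 6 of 7 times). Hspa13 had 0.01 ± 0.11 (limma adjusted p = 0.974, lower at 3 of 7 times).

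The genes that work with these chaperones were read from a list of 47 other genes of the HSP70 system, of which 39 were measured. In KO late cells 0 of the 39 were called higher and 4 lower, where 6.8% of all genes were called lower, a share near that of the list. Those called lower were Hspa5, the HSP70 protein of the endoplasmic reticulum (-0.90 ± 0.19), and Grpel2, a mitochondrial exchange factor (-0.49 ± 0.12). The others were the J-domain genes Dnajc8 (-0.92 ± 0.15) and Dnajc10 (-0.76 ± 0.19). The 4 calls were kept in 24 to 29 of 30 alternatives.

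In WT late cells the median of the 39 was 0.11 (log2), beside -0.02 over all genes. Of the 39, 5 were called higher and 0 lower there, beside 3.6% of all genes called higher. They were the heat-inducible HSP70 genes Hspa1a (5.83 ± 0.75) and Hspa1b (5.28 ± 0.74), whose near-identical transcripts can bind each other's probes, and the J-domain genes Dnajb1 (2.11 ± 0.25), Dnajb4 (1.16 ± 0.28) and Dnaja1 (1.05 ± 0.21). None of the 9 measured exchange factors outside the HSP110 branch passed (0 genes), nor did any of the 4 measured TPR-domain partners. In WT early cells Dnajb1 alone passed (1.78 ± 0.26, limma adjusted p = 0.0302), a call kept in 19 of 30 alternatives.

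**Figure D4:**
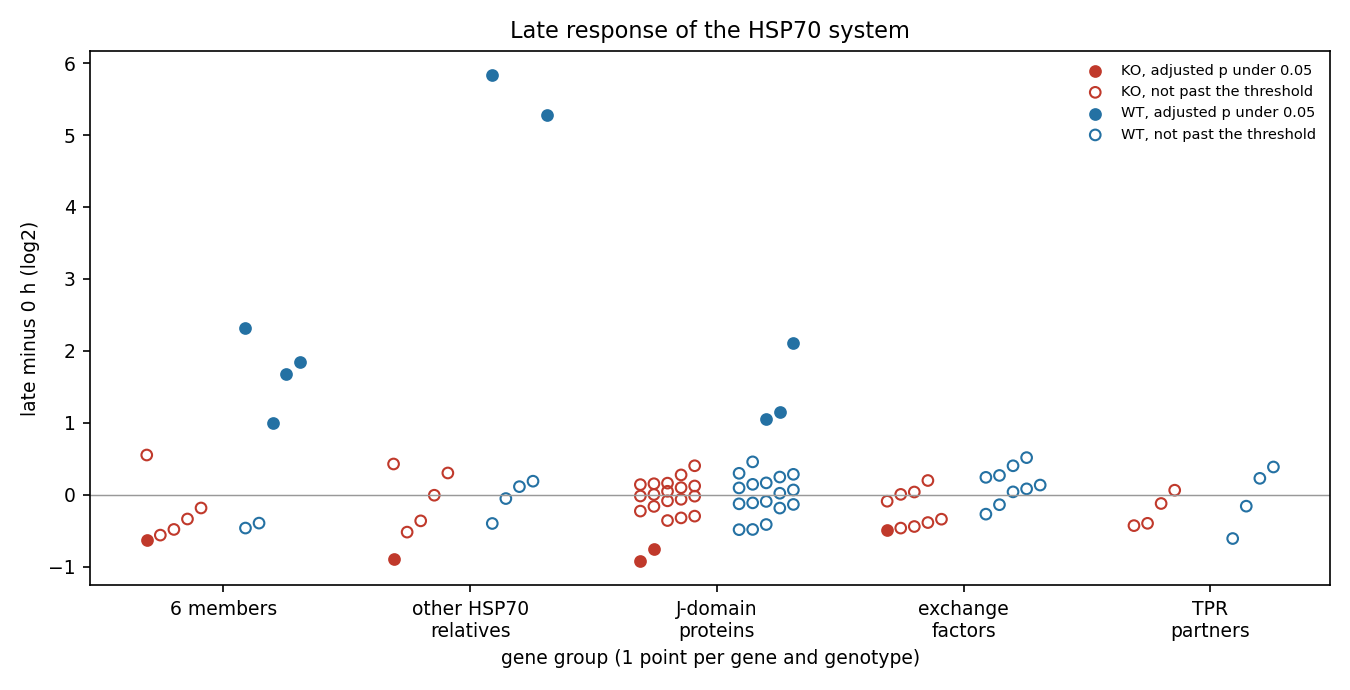
Late minus 0 h difference (vertical axis, log2) of the 6 genes and of 39 other HSP70 system genes in 4 groups (horizontal axis, 1 point per gene and genotype, spread sideways for legibility), KO in red to the left of WT in blue, filled where the limma adjusted p was under 0.05. Filled WT points lie above 0 among the 6 genes, the HSP70 relatives and the J-domain genes, and filled KO points lie below 0.

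The KO response was lower than the WT response in the late window for 3 of the 39, beside 0.0941% of all genes called in either direction: Hspa1a (-5.84 ± 1.06), Hspa1b (-5.80 ± 0.99) and Dnajb1 (-2.11 ± 0.35), at limma adjusted p of 0.0402 to 0.0438. These 3 calls were kept in 9 of 31, 10 of 28 and 15 of 31 alternatives. Over the heated times 8 of the 39 were lower in KO cells and 0 higher, where 3.13% of all genes were called lower. They included Dnaja1 (-1.25 ± 0.15), Dnajb4 (-1.21 ± 0.21), the TPR-domain partner Stip1, which links HSP70 to HSP90 (-1.01 ± 0.20), and the exchange factor Bag2 (-0.73 ± 0.16). The calls of Stip1 and Bag2 were kept in 17 and 10 of 24 alternatives. The others were Hspa1a, Hspa1b, Dnajb1 and Hspa5, and the call of Hspa5 was kept in 12 of 24 alternatives. At 0 h 2 of the 39, Hspa9 and Dnajb5, were already called lower in KO cells, beside 6.64% of all genes called in either direction. These 0 h calls were kept in 5 and 6 of 31 alternatives.

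The genes whose values ran most like each member across the 20 arrays were ranked by Pearson r among 9459 genes with a value on every array. The arrays share groups of time and genotype, so these values describe the pattern and carry no p. For Hsph1 they were Hspa1a (0.972), Hsp90aa1 (0.957) and Dnaja1 (0.953). For Hspa8 they were Ebpl (0.961), Sdhaf1 (0.950) and Cacybp (0.940), and for Hspa2 they were Hspb8 (0.83), Chrd (0.826) and Hspa1a (0.80). The leading genes for the other 3 members were, for Hspa4l, Mns1 (0.753), Chordc1 (0.737) and Jmjd6 (0.731), for Hspa4, Plec (0.780), Psmb7 (0.777) and Tmx1 (0.763), and for Hspa13, Cand1 (0.881), Ing1 (0.880) and Mapre1 (0.878).

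Among the members themselves, Hsph1 and Hspa8 had r = 0.921, Hsph1 and Hspa2 had 0.739, and Hsph1 and Hspa4l had 0.672 over the same 20 arrays. Hspa13 and Hsph1 had r = -0.31, and Hspa4 and Hsph1 had 0.296.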

How the data were processed

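The deposited value table gives, for every probe on every array, the log2 ratio of the sample to the pool. Direction was taken from the dyes in the labels. The authors state neither base nor direction in the table: the largest absolute value, 10.2, is beyond 4.82, the largest log10 ratio of 16-bit signals, and natural logarithms were not excluded, in which case the folds here are too small. Background correction and spot filters are not given in the sources used here, and spot intensities were not used, so signal over background is unknown. Of all values 3.28% were missing.

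Each array was centred on its median (deposited medians -0.53 to -0.18). Probes with fewer than 2 values in any of the 6 groups were left out. A gene's value was the mean of its single-gene probes, each less that probe's mean across arrays. Models were fitted in R 4.3.3 with limma 3.58.1 (lmFit, eBayes, two-sided). The heated comparison used 14 arrays with time as a block. Alternatives changed the centring, scaling, filter, probe summary, blocks and arrays. Many left out arrays that a given comparison does not contrast, which reach it mainly through the shared spread and the adjustment. Counts of alternatives that kept a call are therefore not counts of independent checks. Named genes were the 6 members, HSP70 system genes past the threshold (at most 5 per comparison and subgroup, by p) and the 3 genes most like each member. Promoters are RefSeq's, GRCm38.p6. The members and lists were chosen with earlier results of these data known. The test was tried on simulated data with independent arrays. For WT late it called 51% of genes shifted by 1 and 95% of genes shifted by 2 (log2). A gene that was not called can therefore still have changed. The number of arrays limits the precision.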

Additional observations from a re-analysis of the deposited data

Results flagged for a closer look

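For Hspa8 and Hspa2 every KO array of a window lay below the KO 0 h mean and every WT array of it above the WT 0 h mean. The share of all genes with the same pattern was not counted, so it is not shown to be particular to Hspa8 and Hspa2. The KO changes themselves were not called (limma adjusted p of 0.309 for Hspa8 late, 0.313 for Hspa2 late and 0.870 for Hspa2 early), nor was the early WT change of Hspa2 (limma adjusted p = 0.340). Hspa8 showed this in the late window, where the KO response minus the WT response was -1.33 ± 0.28 (limma adjusted p = 0.0933). Hspa2 showed it in the early window, at -1.32 ± 0.50 (limma adjusted p = 0.582), and in the late window, at -2.24 ± 0.47 (limma adjusted p = 0.0933). The test of each difference thus missed the threshold. The Hspa2 KO 0 h mean rested on the third array, at 0.73 beside -0.22 and -0.10. Without that array the KO change of Hspa2 was -0.0722 early and -0.27 late, and the KO 0.5 h array no longer lay below the 0 h mean. No array stood apart from the others of its group in the 12 late gene and genotype groups of 4 arrays that could be examined (0 of 12).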

How the results depend on the processing

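With values on every array, the genes called among the 6 were 1 for the late difference in response, 1 at 0 h and 4 for the heated comparison, as in the last with no time block (Hspa2 gained, limma adjusted p of 0.0442 and 0.0394). Quantile normalization and width scaling each gave 3 for WT late and 2 for the heated comparison, the last also with at least 1 value per group, where Hspa4l was lost, and 1 probe per gene gave 5 for WT late, where Hspa13 was gained. With only the contrasted arrays they were 0 for KO late, 1 for WT late and 1 for the late difference in response. Without the 0.5 h arrays they were 1 for WT early and 1 for the late difference in response, without the KO arrays of 6 and 8 h they were 0 for KO late and 1 for the heated comparison, and without 2 widely spread probes, chosen after seeing the data, 1 at 0 h. Leaving out 1 array at a time gave 3 to 5 for WT late, 0 to 1 for WT early, KO late, the late difference in response and 0 h, 0 to 0 for KO early and for the early difference in response, and 2 to 3 for the heated comparison.

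Values that changed sign were not called in any analysis. Without centring they were -0.0566 for Hsph1 in KO early cells and -0.14 for Hspa13 in the early difference in response. With quantile normalization, width scaling and 1 probe per gene this Hspa13 value was -0.0647, -0.0181 and -0.0642, and Hspa4l at 0 h was -0.0369, -0.12 and -0.16. With 1 probe per gene Hspa4l in KO late cells was -0.0205 and Hspa13 in the heated comparison was -0.0515. With values on every array Hsph1 in KO early cells was -0.0626, without the 0.5 h arrays Hspa13 in the heated comparison was -0.00694, and without the 2 spread probes Hspa4l was -0.0205 in KO late cells and -0.16 at 0 h. Leaving out 1 array at a time gave -0.11 to 0.10 for Hsph1 in KO early cells, -0.11 to 0.14 for Hspa13 and -0.58 to 0.84 for Hspa4l at 0 h, -0.0239 to 0.0629 for Hspa13 in the heated comparison, and -0.32 to 0.15 and -0.31 to 0.13 for Hspa4 in the early and late difference in response. The cause was not tested.

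Over all genes, other settings gave 164 to 876 calls for WT late (772 as reported), 220 to 1539 for KO late (1133), 109 to 770 at 0 h (705), 134 to 710 in the heated comparison (590), 0 to 10 for WT early (4) and 0 to 17 for the late difference in response (10). Calls higher and lower in WT late were 382 and 390 as reported, 336 and 222 without centring and 224 and 147 with width scaling. In KO late they were 410 and 723, and 419 and 463 without centring. At 0 h they were 323 and 382, 408 and 286 without centring, 376 and 232 with quantile normalization and 295 and 225 with width scaling. Without centring the median of all genes moved to 0.19 for WT early, -0.12 for KO early, -0.31 for the early difference in response and 0.16 at 0 h.

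The values gave no sign that the replicate number was a pairing, which does not show how the arrays were run. Same-numbered 0 h arrays of the genotypes correlated with r of -0.0194 to -0.00463 in their deviations from the group means, and arrays of the same heated time with r of -0.0227 to 0.0557. In each heated window, same-numbered arrays of the genotypes shared a time, so there the replicate block also paired arrays by time. With this block, 0 of the 6 genes were called in the late and early difference in response and at 0 h, as without it. Calls over all genes were 0 and 448 in the late difference in response and at 0 h. Under it Hspa1a, Hspa1b and Dnajb1 missed the threshold in the late difference in response (limma adjusted p of 0.154, 0.186 and 0.165).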
